A study of Homo sapiens with 6 samples.

Results

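Homologous recombination repairs DNA double-strand breaks by copying an intact sister chromatid. The break ends are trimmed to single strands, coated by a recombinase, and paired with the undamaged copy, and the joined molecules are then separated. The Fanconi anaemia proteins act upstream of this at crosslinked DNA, where a core complex of several subunits attaches ubiquitin to a paired substrate and directs the crosslink into recombination. Many genes of both pathways are transcribed mainly while a cell copies its DNA, and inhibition of PI3 kinase has been studied in breast cancer as a way to lower recombination capacity.

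The genes were taken from a list of 35 that code for proteins of both pathways, for the kinases that signal to them, or for nucleases that act at their end. Each gene was read through 1 probe set, the one with the highest mean over all arrays among those that the chip annotation gives to that gene alone. Of the 35 genes, 31 had such a probe set among the 19775 genes of the table, and 4 were not analysed here. No filter on low values was applied. The mean level of 25 of the 31 lay above that of the median gene, and RAD51B, RAD51D, XRCC2, FANCB, FANCC and FANCM lay below it.

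The cells were T47D, a luminal breast cancer cell line long kept in culture. In 1 group, 3 arrays came from cells given GDC-0941, an inhibitor of all class I PI3 kinases, for 6 hours, and in the other 3 arrays came from control cells whose agent is given as none. The dose is labelled 1 mM, a unit that may have lost a micro sign, and whether the controls received solvent is not stated. All cells grew in DMEM with serum, and the labels name no genetic change in either group. Values are log2 RMA signals, which are relative to the other transcripts of an array, and differences are GDC-0941 minus control on that log2 scale.

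Arrays correlated at 0.9970 to 0.9983 within groups and at 0.9917 to 0.9942 between them, across probe sets. All 9 luminal epithelial marker genes lay above the level of the median gene, and 5 of them passed the test, FOXA1, PGR and CDH1 as higher with GDC-0941 and KRT8 and KRT18 as lower. Of 9 markers of other cells, 3 (CD3E, COL1A1 and PECAM1) lay above that level, 1 of the 9 (COL1A1) passed as higher with GDC-0941, and their mean level per array was 7.74 to 7.88 with GDC-0941 and 7.76 to 7.80 in controls. Any part of these transcripts in the results was not tested.

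After GDC-0941, 11 of the 31 genes fell and 1 rose. RAD54B, a DNA translocase, fell most (1.92-fold lower), followed by XRCC3 (1.45-fold lower), EXO1 (1.40-fold lower), FANCM (1.39-fold lower) and ATR (1.33-fold lower). RAD51C, BRCA1, FANCE, CHEK1, RAD54L and BLM were 1.29-fold to 1.17-fold lower. MRE11 was the gene that rose, 1.35-fold. The other 19 did not pass the test, which was limma across all 19775 genes with Benjamini-Hochberg adjustment and a threshold of 0.05 for the adjusted p.

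The 11 falls are 35.5% of the 31 genes, beside 15.6% of all genes called lower, and the 1 rise is 3.23%, beside 12.1% of all genes called higher. Most of the 31 lay above the median level. With genes above that level alone, 11 of 25 were lower, beside 3108 of 9887 genes, and 3 higher, beside 2290 of 9887. The share of falls thus lay closer to that of the genes tested than it did without this filter. The median log2 difference was -0.10 over the 31 genes and -0.02 over all genes. In 17 of the 31 genes all GDC-0941 arrays lay below all controls, a pattern that 24.0% of all genes showed, and in 2 they lay above, as in 17.5% of all genes. The remaining 12 had overlapping groups. Relative to the control mean of each gene, the median over the 31 genes was -0.13, -0.16 and -0.10 on the GDC-0941 arrays 1, 2 and 3, against -0.004, -0.02 and 0.02 on the control arrays. In bulk RNA, a smaller share of cells in the phase that transcribes these genes and less transcript per cell cannot be told apart.

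The directions rest on the submitters' normalization. As an alternative, each array was centred on 18 probe sets for hybridisation controls, which are added at the hybridisation step. Whether these controls track the amount of RNA per cell was not tested. With this centring the median of all genes was 0.15 and that of the 31 genes 0.07. The calls then stood at 5 lower (16.1% of the 31 genes, beside 4.53% of all genes) and 4 higher (12.9%, beside 28.8%). RAD54B, XRCC3, EXO1, FANCM and ATR remained lower and MRE11 higher, while the calls of RAD51C, BRCA1, FANCE, CHEK1, RAD54L and BLM were lost and XRCC2, NBN and ATM were called higher. Over all genes, 43.7% of called genes were higher with the submitters' normalization and 86.4% with this centring.

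**Figure D1:**
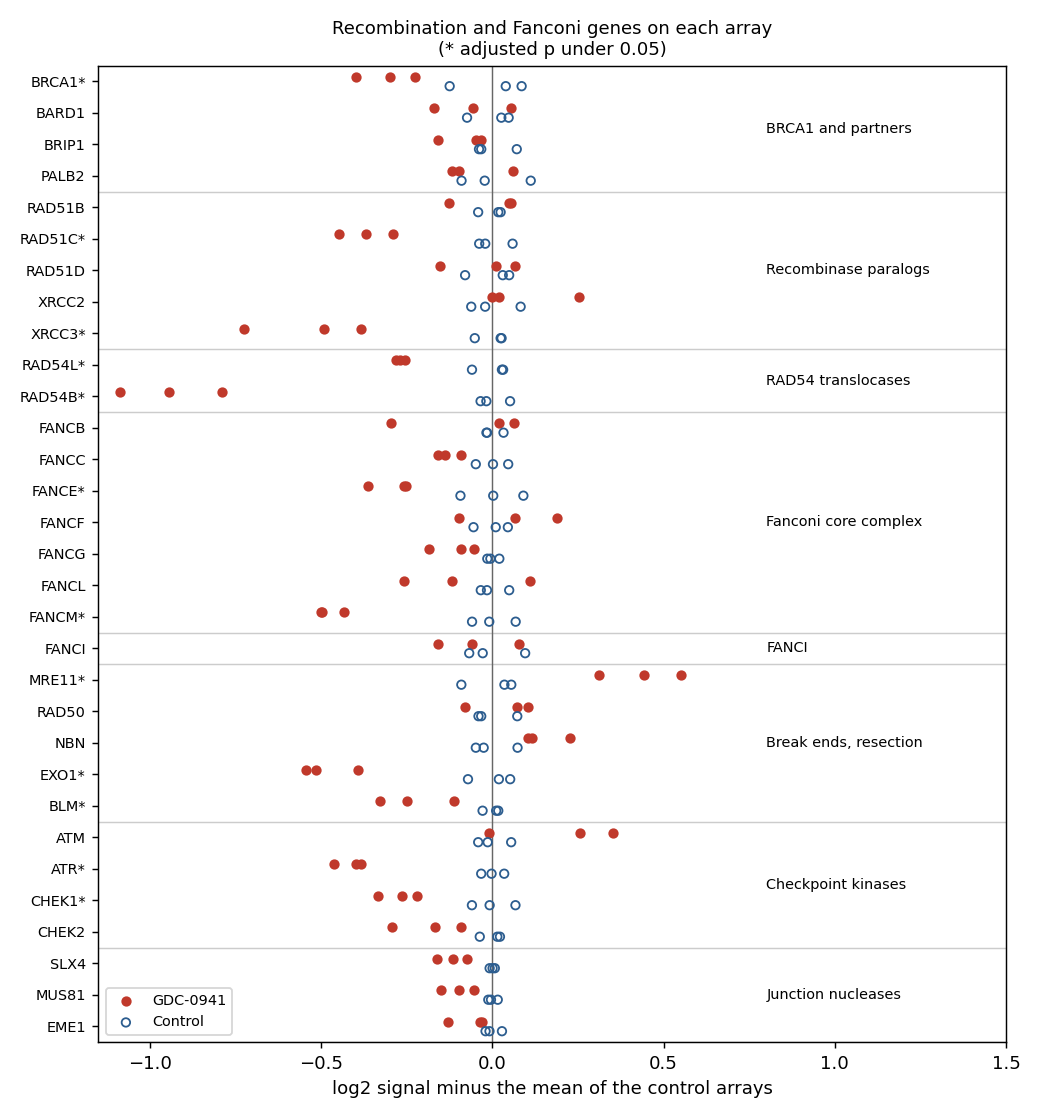
Each row is 1 gene, grouped by role, and each point 1 array, plotted as its log2 signal minus the mean of the 3 control arrays (filled points GDC-0941, open points control; n = 3 each). An asterisk marks an adjusted p under 0.05 in limma. The GDC-0941 points of RAD54B lie farthest to the left, those of MRE11 farthest to the right, and 12 of the 31 genes have overlapping groups.

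Among BRCA1 and its partners, BRCA1 alone of the 4 measured genes fell. BRCA1 codes for the ubiquitin ligase that promotes end trimming and recombinase loading. Its level was 9.14, 9.07 and 8.97 on the GDC-0941 arrays, against 9.45, 9.24 and 9.41 in controls. The groups did not overlap, and the difference was -0.31 ± 0.07 (SE, n = 3 each; adjusted p = 0.00614 in limma). A second BRCA1 probe set read the same direction, with 8.86, 8.82 and 8.85 under GDC-0941, against 9.19, 9.11 and 9.23 in controls (adjusted p = 0.00248 in limma over all probe sets).

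For BARD1, which forms the ligase with BRCA1, the call depended on the probe set. The brightest of its 3 probe sets had 10.37, 10.14 and 10.25 with GDC-0941, against 10.24, 10.34 and 10.36 in controls, overlapping groups with a difference of -0.06 (95% interval -0.21 to 0.09). The other two BARD1 probe sets fell by 0.25 and 0.31 on the log2 scale, without overlap between the groups (adjusted p = 0.0271 and 0.00996 in limma over all probe sets). The helicase BRIP1 differed by -0.08 and PALB2, which bridges BRCA1 to the recombinase loader, by -0.05, with overlapping groups for both.

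The paralogs of the recombinase form small complexes that help it assemble on single-stranded DNA. Of these 5 genes, XRCC3 and RAD51C fell. They code for the subunits of one such complex, CX3. XRCC3 had 7.77, 8.001 and 8.11 with GDC-0941, against 8.52, 8.52 and 8.44 in controls. Every GDC-0941 array was lower by more than the spread of the controls, and the difference was -0.53 ± 0.08 (SE, adjusted p = 0.00041 in limma). RAD51C had 9.94, 9.79 and 9.87 with GDC-0941, against 10.29, 10.20 and 10.21 in controls. Its difference was -0.37 ± 0.06 (SE, adjusted p = 0.000792 in limma), and its second probe set was lower by a similar amount (-0.40).

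RAD51B, RAD51D and XRCC2, which work in the other paralog complex together with RAD51C, differed by -0.01, -0.03 and 0.09, with overlapping groups in each. The intervals of these differences ran from -0.15 to 0.13, from -0.18 to 0.13 and from -0.07 to 0.26, so falls as large as that of XRCC3 lie outside them. For RAD51D the reading again depended on the probe set. Its other one, of nearly equal brightness, had 7.88, 7.87 and 7.88 with GDC-0941, against 8.25, 8.22 and 8.25 in controls, a fall of 0.36 on the log2 scale (adjusted p = 0.000944 in limma over all probe sets).

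Both RAD54 genes fell. They code for DNA translocases of the SWI2/SNF2 family that help the recombinase filament invade the intact duplex. RAD54B had 8.26, 7.96 and 8.11 with GDC-0941, against 9.10, 9.01 and 9.03 in controls. Its difference of -0.94 ± 0.07 (SE, adjusted p = 4.96e-06 in limma) was the largest in size among the 31 genes, and it was -1.01 to -0.87 with each array left out in turn. RAD54L had 8.74, 8.75 and 8.76 with GDC-0941, against 8.96, 9.05 and 9.05 in controls. The GDC-0941 arrays of RAD54L lay close together and below all controls, with a difference of -0.27 ± 0.06 (SE, adjusted p = 0.0031 in limma). Each gene has 1 probe set, so no second reading exists for either.

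**Figure D2:**
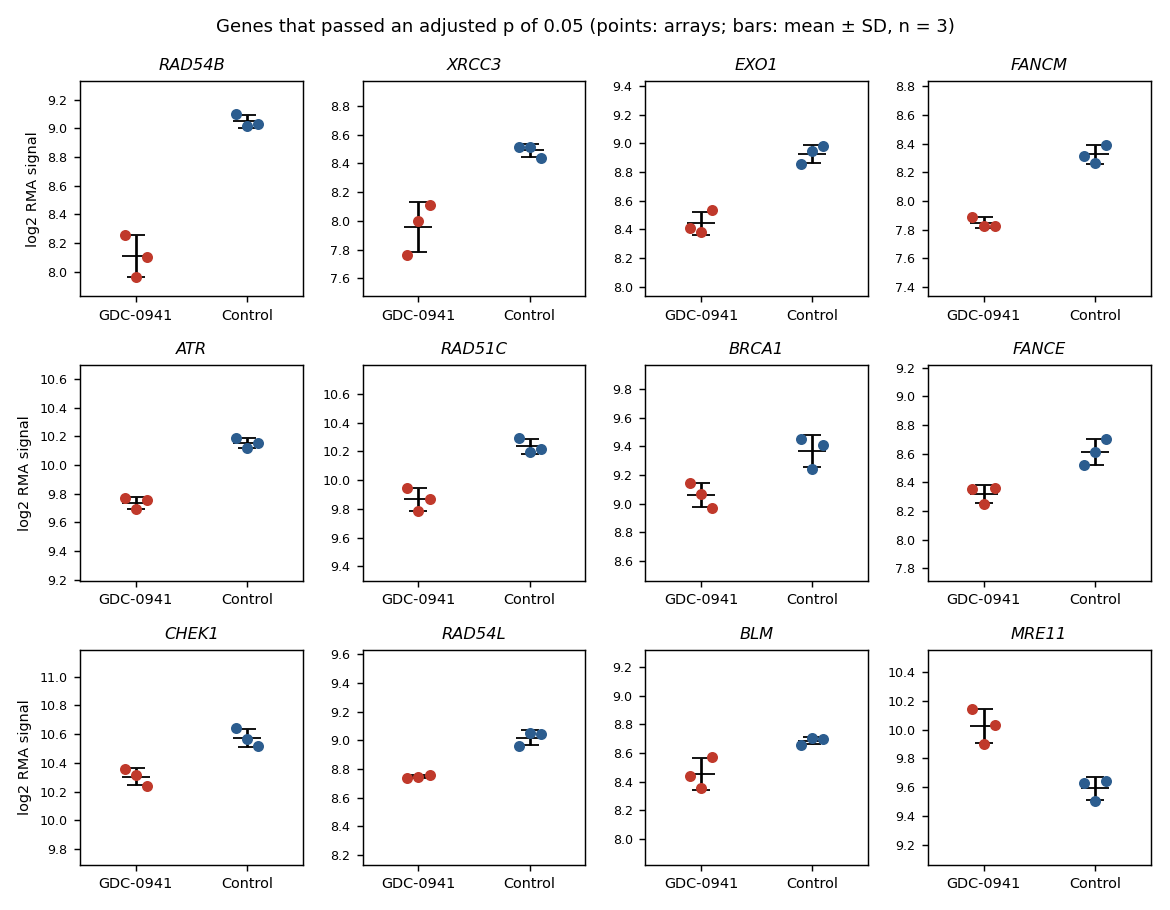
The 12 genes that passed are shown in separate panels with the log2 RMA signal on a vertical axis that spans the same range in each. Points are arrays and bars the mean ± SD (n = 3 each), GDC-0941 on the left. The distance between groups is widest for RAD54B and narrowest for BLM, and only MRE11 is higher with GDC-0941.

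In the Fanconi core complex, FANCM and FANCE fell and the other 5 measured genes did not pass. FANCM is the helicase-like subunit that anchors the complex to DNA. It had 7.89, 7.82 and 7.83 with GDC-0941, against 8.32, 8.26 and 8.39 in controls, and the groups lay far apart relative to their spread. The difference was -0.48 ± 0.06 (SE, adjusted p = 9.27e-05 in limma). The other 3 FANCM probe sets had smaller differences of -0.24, -0.11 and -0.11 that did not pass. The call was lost (adjusted p = 0.245 in limma) when probe sets not marked by the manufacturer's suffix s, x or a were taken first. That choice moved FANCM to a dim probe set, at a mean level of 5.40.

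FANCE, the subunit that contacts the substrate of the complex, had 8.35, 8.25 and 8.36 with GDC-0941, against 8.52, 8.61 and 8.70 in controls. The difference was -0.29 ± 0.06 (SE, adjusted p = 0.00493 in limma), again without overlap. FANCC and FANCG, both structural subunits, differed by -0.13 and -0.11. Their GDC-0941 arrays all lay below the controls, but neither passed (adjusted p = 0.115 and 0.193). FANCL, the ubiquitin ligase of the complex, differed by -0.09 and FANCF, an adaptor subunit, by 0.05, both with overlapping groups.

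The remaining core gene, FANCB, was dim in all its probe sets. The brightest had 6.39, 6.70 and 6.75 with GDC-0941, against 6.67, 6.71 and 6.67 in controls, and its groups overlapped (difference -0.07). Its other 3 probe sets, at mean levels of 4.75 to 5.88, all fell, by 0.29, 0.45 and 0.64 on the log2 scale (adjusted p = 0.00573, 0.00493 and 0.000307 in limma over all probe sets). RMA gives no detection call, so whether these dim probe sets read the transcript is not known. For FANCF too the second probe set fell, by 0.26 on the log2 scale, from nearly the same brightness as the first. FANCI codes for one of the paired proteins that the core complex ubiquitinates. It had 10.59, 10.36 and 10.46 with GDC-0941, against 10.45, 10.49 and 10.61 in controls, with overlapping groups. The 3 FANCI probe sets differed by -0.05, -0.02 and -0.04, and none passed.

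Genes that act at the break end moved in both directions. MRE11, RAD50 and NBN form the complex that binds a broken end and starts its trimming. MRE11 had 10.14, 9.90 and 10.03 with GDC-0941, against 9.63, 9.50 and 9.65 in controls. Its difference of 0.44 ± 0.07 (SE, adjusted p = 0.000727 in limma) was the one rise that passed. The other two MRE11 probe sets were dimmer and differed by 0.05 and 0.15 without passing, and with the unmarked probe set taken first the call was lost (adjusted p = 0.619).

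NBN had 11.27, 11.16 and 11.14 with GDC-0941, against 11.02, 10.99 and 11.11 in controls. The groups did not overlap, yet the difference of 0.15 did not pass (adjusted p = 0.0991), nor did any of its 5 probe sets. RAD50 differed by 0.03 with overlapping groups.

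EXO1, the nuclease of long-range trimming, and BLM, a helicase that assists trimming and later dissolves joined molecules, both fell. EXO1 had 8.41, 8.38 and 8.53 with GDC-0941, against 8.85, 8.94 and 8.98 in controls, a difference of -0.48 ± 0.06 (SE, adjusted p = 0.000142 in limma). BLM had 8.44, 8.36 and 8.57 with GDC-0941, against 8.66, 8.70 and 8.70 in controls. Its difference of -0.23 ± 0.06 (SE, adjusted p = 0.0197 in limma) was the smallest that passed. The BLM call did not survive leaving out GDC-0941 replicate 2 (adjusted p = 0.0666) or, among the controls, replicate 2 (adjusted p = 0.0675) or 3 (adjusted p = 0.0501).

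Among the 4 checkpoint kinases, ATR and CHEK1 fell. ATR senses single-stranded DNA at stalled forks and activates CHEK1. The level of ATR was 9.77, 9.69 and 9.75 with GDC-0941, against 10.19, 10.12 and 10.15 in controls. Both groups were tight and well apart, with a difference of -0.42 ± 0.06 (SE, adjusted p = 0.00017 in limma). A second ATR probe set had a larger difference of -0.58 (adjusted p = 0.000194 in limma over all probe sets), and the third, at a mean level of 5.81, differed by -0.07.

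CHEK1 had 10.36, 10.31 and 10.24 with GDC-0941, against 10.64, 10.57 and 10.52 in controls, a difference of -0.27 ± 0.06 (SE, adjusted p = 0.0048 in limma). It was the gene of the 31 with probe sets called both ways. The third of its probe sets in order of brightness fell by 0.48 on the log2 scale (adjusted p = 0.00106 in limma over all probe sets). Its dimmest probe set rose, with 8.93, 8.56 and 8.66 on the GDC-0941 arrays, against 8.07, 8.04 and 8.28 in controls. This rise of 0.58 ± 0.10 (SE) also passed (adjusted p = 0.00143 in limma over all probe sets), and the remaining probe set differed by -0.09. With all 4 averaged the CHEK1 call was lost (difference -0.06, adjusted p = 0.484). The sources used here do not say which transcript each of the 4 reads.

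ATM, the kinase that answers double-strand breaks, had 9.60, 9.34 and 9.70 with GDC-0941, against 9.40, 9.31 and 9.33 in controls. One GDC-0941 array lay among the controls, and the difference of 0.20 did not pass (adjusted p = 0.105). It was 0.30 without GDC-0941 replicate 2 (adjusted p = 0.00651). Of the 6 ATM probe sets the next brightest was the one called, 0.29 higher (adjusted p = 0.0109 in limma over all probe sets). CHEK2, the kinase that ATM activates, had 9.15, 8.95 and 9.08 with GDC-0941, against 9.26, 9.21 and 9.27 in controls. It lay just outside the threshold, with a difference of -0.18 (adjusted p = 0.0501), and passed without GDC-0941 replicate 1 (adjusted p = 0.0197).

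The 3 genes for nucleases at branched molecules did not pass. SLX4, the scaffold on which these nucleases gather, had 9.06, 9.11 and 9.15 with GDC-0941, against 9.23, 9.22 and 9.23 in controls (difference -0.12, adjusted p = 0.147). MUS81 and its partner EME1, which cut such molecules, differed by -0.10 and -0.07. In all 3 genes the GDC-0941 arrays lay below the controls by amounts smaller than those of the genes that passed.

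**Figure D3:**
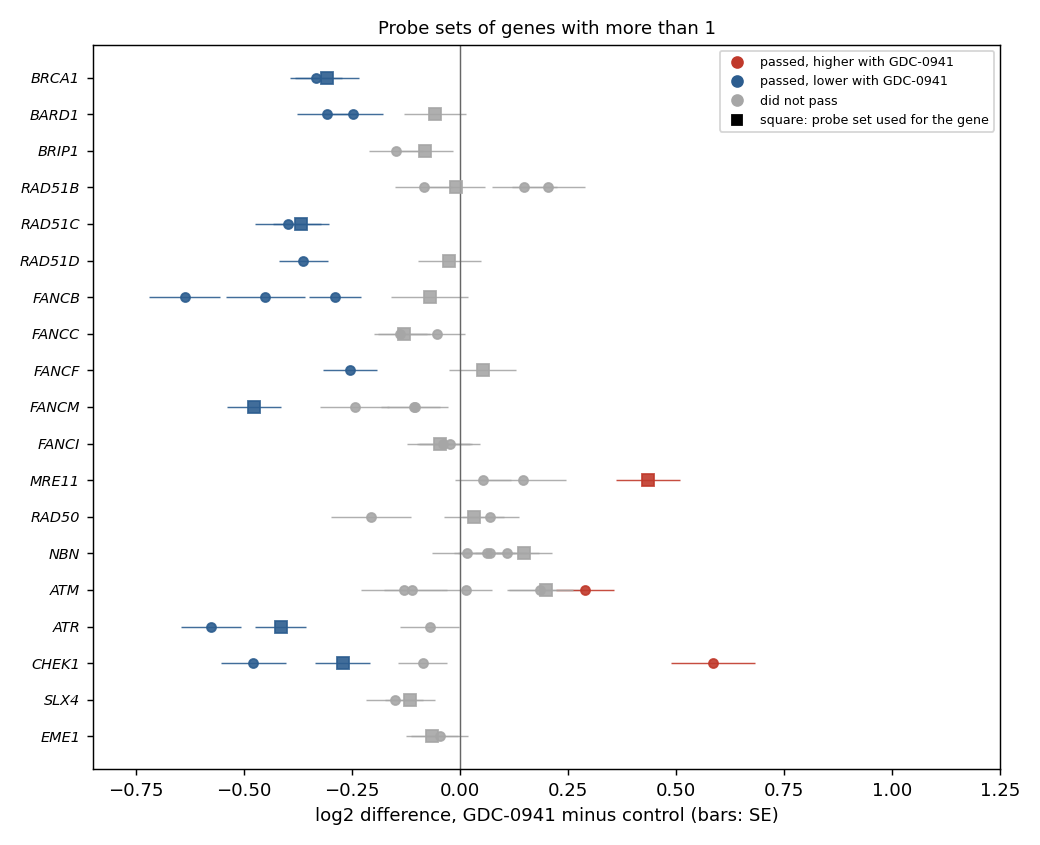
Each row is 1 of the 19 genes with more than 1 probe set, and each mark a probe set at its log2 difference, GDC-0941 minus control, with its SE (n = 3 each). Squares are the probe sets used for the genes, and colours give the call over all probe sets. CHEK1 has probe sets on both sides, and BARD1, RAD51D, FANCB and FANCF have blue circles beside a grey square.

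Across all 71 probe sets of the 31 genes, fitted together with the 54613 probe sets of the array, 22 were called lower and 3 higher. The shares over all probe sets were 9.89% lower and 8.88% higher. In this reading 15 genes had at least 1 probe set called lower and 3 had at least 1 called higher, CHEK1 being in both counts, and 14 had none called. Over all genes, 17.2% had at least 1 probe set called lower and 13.5% at least 1 called higher, shares that depend on the number of probe sets per gene, and 19 of the 31 genes have several. The genes added to the lower count relative to the reading by 1 probe set were BARD1, RAD51D, FANCB and FANCF.

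Promoter sequence was available in the RefSeq table (GRCh38.p14) for 28 of the 31 genes. Of the 5 called genes with a log2 difference of at least 0.4 in size and an entry, 3 hold the letters CCAAT, bound by the factor NF-Y, in the 250 bases before the start, and these are shown with CCAAT or its reverse complement in capitals. XRCC3 and FANCM fell and MRE11 rose.
XRCC3 (chr14:103715452-103715701, minus strand): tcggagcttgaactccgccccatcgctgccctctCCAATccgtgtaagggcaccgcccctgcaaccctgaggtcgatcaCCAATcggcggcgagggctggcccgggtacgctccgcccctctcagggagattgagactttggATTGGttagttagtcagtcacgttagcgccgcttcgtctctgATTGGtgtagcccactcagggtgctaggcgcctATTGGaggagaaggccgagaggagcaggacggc
FANCM (chr14:45135680-45135929, plus strand): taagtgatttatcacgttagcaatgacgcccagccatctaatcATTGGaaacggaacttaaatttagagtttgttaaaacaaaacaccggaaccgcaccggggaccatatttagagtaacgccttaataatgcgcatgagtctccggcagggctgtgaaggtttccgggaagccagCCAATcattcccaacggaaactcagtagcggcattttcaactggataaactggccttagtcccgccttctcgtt
MRE11 (chr11:94493845-94494094, minus strand): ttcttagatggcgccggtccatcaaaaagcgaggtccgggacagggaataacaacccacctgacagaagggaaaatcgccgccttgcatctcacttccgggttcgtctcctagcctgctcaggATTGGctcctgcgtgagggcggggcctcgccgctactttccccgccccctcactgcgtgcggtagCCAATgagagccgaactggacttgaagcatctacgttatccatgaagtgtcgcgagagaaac
XRCC3 holds CCAAT 5 times in this window, FANCM and MRE11 2 times each, and EXO1 and ATR not at all. Over all windows, counted on both strands, CCAAT was present in 12 of 28 windows of these genes (42.9%) and in 34.1% of the 15384 measured genes with an entry. It was present in 5 of the 10 windows of genes that fell, beside 36.1% of the 2524 windows of all genes called lower. Letters of the E2F type (written TTCCCGC in one spelling, with TTCGCGC as another spelling, TTGGCGC as a further one and TTGCCGC as the last, all on either strand), named for the factors that drive S-phase genes, were present in 7 of 28 windows and in 14.5% of the 15384. Of the 10 windows of genes that fell, 2 held them (RAD54L and BLM), beside 19.5% of the 2524. The forkhead letters TGTTTAC, of the kind FOXO factors bind, were in none of the 28 windows and in 2.25% of the 15384.

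The other genes of these pathways were read from a list of 71, of which 65 were measured. Of these, 20 fell (30.8%, beside 15.6% of all genes) and 5 rose (7.69%, beside 12.1%), with a median log2 difference of -0.11. With the arrays centred on hybridisation controls, 6 of the 65 were lower (beside 4.53% of all genes) and 13 higher (beside 28.8%). Among genes above the median level alone, 27 of 55 were lower (beside 3108 of 9887 genes) and 5 higher (beside 2290 of 9887). The largest falls were CDC25A, the phosphatase that ATR and CHEK1 signalling restrains (1.97-fold lower, adjusted p = 1.4e-05), and CENPX, a small protein that binds DNA with FANCM (1.71-fold lower, adjusted p = 7.54e-06). TIPIN, which keeps stalled forks stable, was 1.54-fold lower (adjusted p = 5.01e-05) and FIRRM, which works with FIGNL1 on the recombinase, 1.51-fold lower (adjusted p = 7.67e-05).

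Some of the genes that complete the Fanconi machinery were among the falls. FAAP100, a core complex subunit that binds FANCB and FANCL, was 1.46-fold lower (adjusted p = 0.000235), with 8.96, 8.65 and 8.89 under GDC-0941, against 9.41, 9.34 and 9.40 in controls. UBE2T, the ubiquitin-conjugating enzyme of FANCL, was 1.45-fold lower (adjusted p = 7.41e-05), with 10.97, 10.80 and 10.95 under GDC-0941, against 11.43, 11.40 and 11.50 in controls. In neither gene did the groups overlap. FAAP20 and FAAP24, of the same group, differed by -0.04 and 0.01 with overlapping groups and did not pass. In the crosslink repair group as a whole, 5 of 16 genes fell (31.2%, beside 15.6% of all genes) and 1 rose (6.25%, beside 12.1%).

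The largest rises in this list included 2 checkpoint genes. RAD17, which loads the sensor clamp at damaged DNA, rose 1.45-fold (adjusted p = 6.4e-05), with 10.76, 10.60 and 10.71 under GDC-0941, against 10.20, 10.17 and 10.10 in controls. WEE1, the kinase that holds back mitotic entry, rose 1.34-fold (adjusted p = 0.000338). SFR1, part of a recombinase cofactor, rose 1.34-fold (adjusted p = 0.00108), while SWI5, its partner in that cofactor, fell by 0.35 on the log2 scale. ABRAXAS1, the scaffold of a BRCA1-containing complex, rose 1.31-fold (adjusted p = 0.0023). The shares called over all genes, 15.6% lower and 12.1% higher, stand against small groups here. Of the 11 checkpoint signalling genes, 3 fell (27.3%) and 2 rose (18.2%), and of 15 strand exchange genes 5 fell (33.3%) and 1 rose (6.67%). In resection and dissolution 4 of 10 fell (40.0%) and none rose. Among the falls were RMI2 (-0.34) and TOP3A (-0.20), which act together with BLM, and DNA2 (-0.34), a trimming nuclease parallel to EXO1. RMI1, which also acts with BLM, differed by -0.10 with overlapping groups and did not pass (adjusted p = 0.239 in limma). Of 13 chromatin response genes 3 fell (23.1%) and 1 rose (7.69%).

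**Figure D4:**
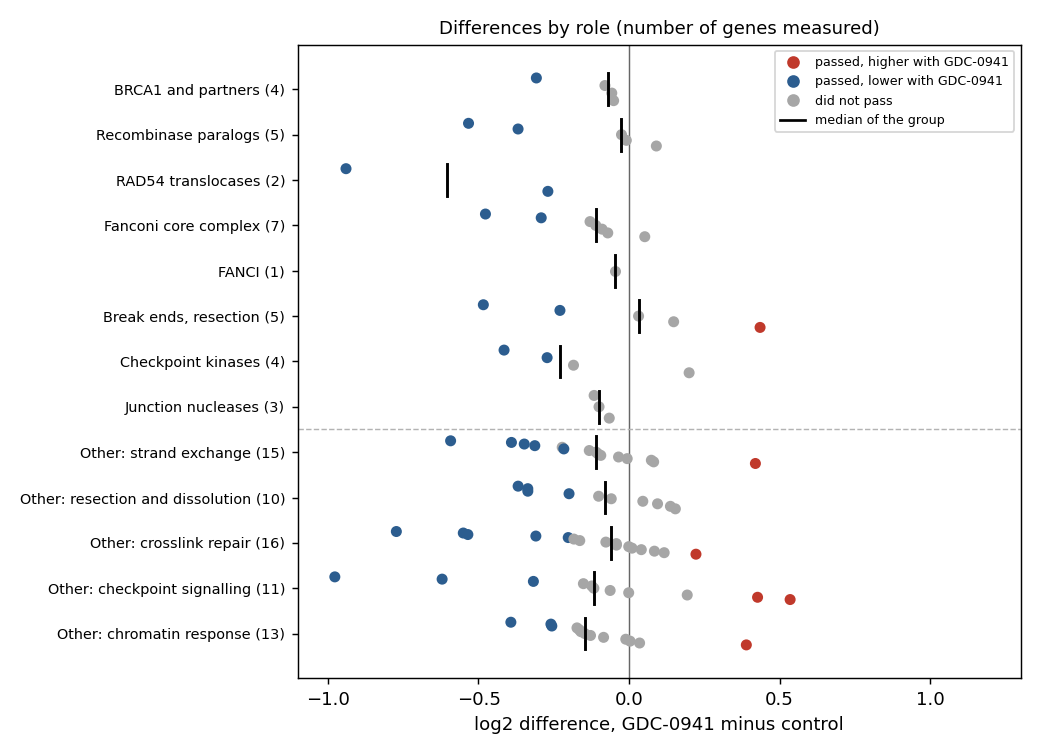
Each point is 1 gene at its log2 difference, GDC-0941 minus control, by role, with the number of genes measured in brackets (blue passed as lower, red passed as higher, grey did not pass; black bars are medians). Groups above the dashed line are the 31 genes and those below it the other genes of the pathways. Both RAD54 genes are blue, and the group medians run from -0.60 for the RAD54 genes to 0.03 for the genes of break ends and resection.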

How the data were processed

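The values are log2 signals that the submitters deposited, made with RMA per the submitters' processing notes (no version, software or chip definition is stated). Their range shows the log2 scale. Symbols were updated by Entrez identifier with the RefSeq gene table of GRCh38.p14, used for names only. Of 54613 probe sets besides the manufacturer's controls, 41091 name 1 gene.

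The comparison used R 4.3.3 and limma 3.58.1 (two-sided, no covariate; lmFit, then eBayes), adjusted over all 19775 genes, and a second fit took all 54613 probe sets. Intervals are 95%. The members and lists were chosen with earlier results of these data known. Array values are given for the 12 called members with the largest differences and the member with the smallest p in each role. Of the other pathway genes, the 4 largest called rises and 6 largest called falls are named, and in each other repair list the called gene with the largest difference. SWI5, RMI1, RMI2, TOP3A, DNA2, FAAP20, FAAP24 and the members or probe sets with array values outside this rule were chosen after their values were seen. Some genes are not reported here.

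Precision depends on there being 3 arrays a group. No label calls replicates independent cultures, and the p-values therefore reflect array-to-array spread that may be technical. Replicate numbers recur in both groups without a stated pairing. Alternatives tried: each array left out, a replicate block, 3 normalizations, 2 variance models, a filter on the level, 2 choices of probe set and an adjusted p under 0.01. Figures were drawn with matplotlib 3.10.9.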

Additional observations from a re-analysis of the deposited data

How the results depend on the processing

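With the replicate number as a block, 11 genes of the 31 were lower and 1 higher, as without it, and it changed none of these calls. Same-numbered arrays had residual correlations of -0.346, 0.187 and -0.017, so the numbers were not taken to pair the samples. Leaving out each array in turn gave 10 to 12 lower, 1 to 2 higher and a median of -0.12 to -0.08, with 17 to 27 lower and 4 to 7 higher among the other pathway genes and 4380 to 5326 genes called in all. Centring on hybridisation controls gave 4 higher and 5 lower of the 31, a median of 0.0699 below the all-gene median of 0.15, and 13 higher and 6 lower among the other pathway genes, with 28.8% of all genes higher and 4.53% lower. The number of lower genes among the 31 was 15 with array weights (beside 5176 of 19775 genes). It was 14 with the mean of all probe sets (beside 3025 of 19775). With that mean, BARD1, RAD51D, FANCB and CHEK2 were called lower and the CHEK1 call was lost. The number of higher genes among the 31 was 2 after quantile normalization again (beside 2871 of 19775 genes). It was 3 with a variance trend and robust estimation (beside 2655 of 19775) or with array weights (beside 4235 of 19775). With genes above the median level alone, 3 of the 25 tested were higher, beside 2290 of 9887 genes. Array weights, whose estimation did not fully converge, gave 9 higher and 34 lower among the other pathway genes. Of all genes, 9411 were then called, 4235 of them higher and 5176 lower. None of the called genes of the 31 changed sign in any alternative run. RAD54B, XRCC3, EXO1 and ATR passed in all 16 alternatives. The 3 arrays per group limit what can be seen: the median SE over all genes was 0.06, so a difference near 0.1 is within 2 SE of 0.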

Other observations

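Other DNA repair pathways were read from lists of the same kind. Of their 48 measured genes 17 fell (35.4%, beside 35.5% of the 31 genes) and 8 rose (16.7%, beside 3.23%). The share that fell was thus close to that of the 31 genes. The separate lists moved in different proportions. Of 4 measured mismatch repair genes 3 fell, led by MSH6, which recognises mismatches (1.78-fold lower, adjusted p = 2.31e-06 in limma). Of 17 base excision repair genes 8 fell and none rose, led by the glycosylase NTHL1 (1.62-fold lower, adjusted p = 8.96e-05), with 15.6% of all genes called lower and 12.1% called higher. Of 11 end-joining genes 3 fell and 1 rose, and POLQ, the polymerase of microhomology-mediated joining, fell by 0.35 on the log2 scale (adjusted p = 0.000509).

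Nucleotide excision repair had more rises than falls, 7 of 16 genes (43.8%, beside 12.1% of all genes) and 3 of 16 (18.8%, beside 15.6%). ERCC5, the nuclease that cuts on the 3′ side of a lesion, rose 1.44-fold, with 9.27, 9.06 and 9.17 under GDC-0941, against 8.55, 8.64 and 8.73 in controls (adjusted p = 0.000183 in limma). These counts are descriptions, and no test compared one pathway with another.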
